A study of Mus musculus with 12 samples.

Results

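Described here are 38 mouse genes of fatty acid oxidation, ketone body metabolism and the response to PPARα, read in 12 liver RNA-seq libraries out of 52636 genes counted. The members were chosen by name: each listed gene symbol was matched to its Ensembl gene ID in the count files, and all 38 were found. All 38 also passed the filter on low counts, among 14433 genes tested, and the lowest count of any member in any library was 36 reads, for Pdk4. The list fits its name for oxidation and PPARα targets, whereas Bdh1 is the 1 member that acts on ketone bodies.

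The livers came from C57BL/6 mice of 12 weeks, p53 wild type (wt) or p53 ko, given a normal diet or HFD, read here as a high-fat diet. The 4 groups are p53 wt on normal diet (wt normal), p53 ko on normal diet (ko normal), p53 wt on HFD (wt HFD) and p53 ko on HFD (ko HFD), with 3 libraries each. Strain, age and tissue are the same in all 4 groups. The series concerns p53 and cholesterol synthesis, and its design crosses genotype with diet. Neither the kind of p53 allele nor the composition and length of the diet, the feeding state or the hour of collection is stated in the labels. Whether replicates are separate animals is also not stated, and p-values here reflect only how far these libraries vary, which may be technical.

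As background, long-chain fatty acids are joined to coenzyme A, carried into mitochondria as carnitine esters and shortened by β-oxidation, while peroxisomes shorten very long chains and microsomal Cyp4a enzymes hydroxylate the far end of the chain. The acetyl-CoA that results can leave the liver as ketone bodies. PPARα is the nuclear receptor that senses fatty acids, binds DNA with RXR at direct repeats and induces many of these genes in the fasted liver. Cyp4a10, Cyp4a14, Ehhadh, Acot1, Pdk4 and Vnn1 are among its known target genes in mouse liver.

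Promoter windows from RefSeq (GRCm38.p6) covered 31 of the 38 members and were searched on both strands of the 250 bases before the start for the direct repeat bound by PPARα with RXR, which is AGGTCA, any 1 base, and AGGTCA again. The other 7, Cyp4a10, Cyp4a14, Cyp4a31, Vnn1, Acaa2, Crat and Decr1, had no window and were not searched. Cyp4a10, Cyp4a14 and Vnn1 are among the known targets named above. None of the 31 members searched held an exact copy, against 0.0335% of 32851 windows of that length over all genes. Some members had more than 1 window, so the 31 members held 36. With at most 2 mismatches in the 12 fixed letters, 3 of these 36 windows held a match (Acot4, Creb3l3 and Etfa), and 3.24% of all windows did. The single copy AGGTCA, which lies within the repeat, occurred in 5 of the 36 windows and in 14.0% of all windows. Shown first is the stretch before Nudt7, the 1 member that passed the test below, in which no such match was found. Second is the stretch before Acot4, with its match on the minus strand in capitals, 13 bases before the start. Last is the gap between the divergent genes Hadha and Hadhb, whose products form 1 enzyme complex, with nothing in capitals. All are on the plus strand, at chr8:114133324-114133556, chr12:84038129-84038378 and chr5:30155163-30155247.
Nudt7: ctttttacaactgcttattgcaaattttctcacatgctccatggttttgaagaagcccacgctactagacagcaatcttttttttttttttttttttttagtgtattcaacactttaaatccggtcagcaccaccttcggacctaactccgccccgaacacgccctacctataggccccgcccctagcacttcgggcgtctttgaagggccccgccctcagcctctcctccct
Acot4: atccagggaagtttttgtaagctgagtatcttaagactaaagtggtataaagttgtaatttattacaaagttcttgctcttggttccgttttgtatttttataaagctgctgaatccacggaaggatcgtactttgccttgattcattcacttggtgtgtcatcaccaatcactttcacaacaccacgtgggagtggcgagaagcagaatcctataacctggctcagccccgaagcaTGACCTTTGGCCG
Hadha-Hadhb: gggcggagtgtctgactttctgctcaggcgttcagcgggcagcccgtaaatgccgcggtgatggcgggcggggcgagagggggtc
A match in letters describes the window and is not a binding site, and no match says only that these letters are not in it.

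Library totals ran from 15465187 to 20492567 counts. Trp53, the gene of p53, stood at 8.54 to 24.5 CPM (counts scaled to a common library size with TMM) in the 6 wt libraries and at 0.27 to 1.62 CPM in the 6 ko libraries. The 10 hepatocyte markers summed to 48347 to 63681 CPM in wt and to 79722 to 89350 CPM in ko libraries, so the defining markers of the labelled tissue were abundant in all 12. Not all 10 rose: on normal diet 7 had positive and 3 negative fitted ko log2 changes, from -0.89 for Tat to 0.88 for Alb. On HFD 9 were positive and 1 negative, from -0.47 for Tat to 0.85 for Alb. The 8 endothelial markers summed to 344 to 388 CPM in wt normal, 180 to 257 in ko normal, 219 to 323 in wt HFD and 162 to 272 in ko HFD. All 8 had negative fitted ko changes on each diet, 1 of them (Lyve1) was called averaged over diets (log2 change -1.82, SE 0.35, adjusted p = 0.0345), and their part in the members' values was not tested. Expression of 12 circadian clock genes summed to 246 to 567 CPM in wt and to 537 to 1006 CPM in ko libraries. These genes changed in both directions. On normal diet 7 had positive and 5 negative fitted ko log2 changes, from -2.47 for Arntl to 4.46 for Dbp. At an unadjusted edgeR p under 0.05, 7 were higher and 3 lower there, where 15.1% of all genes passed, and 0 were called. Whether these changes reflect a shift in clock phase was not tested. On HFD 8 were positive and 4 negative, from -1.33 for Arntl to 1.06 for Dbp. There 1 was higher and 1 lower at that unadjusted p, where 8.85% of all genes passed. Library wt normal 2 carried skeletal muscle transcripts, with 12 markers summing to 12123 CPM against 17.2 to 40.0 CPM elsewhere. One of those 12 markers, Tnnc2, was at 0 in every library. Other marker sums were also highest in wt normal 2. Heart and oxidative muscle markers summed to 908 CPM there, against 1.38 to 5.41 CPM elsewhere. B cell markers summed to 216 CPM against 9.94 to 28.6 CPM, and stellate cell markers to 924 CPM against 220 to 401 CPM. The share of counts from mitochondrially encoded genes was 14.6% in ko normal 1, 10.3% in ko HFD 2 and 4.18% to 7.22% in the other libraries. In bulk tissue, fewer cells of a type and less RNA per cell cannot be told apart.

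The list as a whole showed little change with genotype or diet that exceeded the spread between libraries. Nudt7 rose on HFD in wt and averaged over genotypes, and no other member was called in any of 7 comparisons (edgeR quasi-likelihood test, Benjamini-Hochberg adjusted p under 0.05 over all 14433 genes). For ko against wt, 0 of 38 members were called on normal diet, where 0.208% of all genes were, and 0 of 38 on HFD, where 0.0693% were. For HFD against normal diet, 1 of 38 was called in wt (all genes 0.693%) and 0 of 38 in ko (all genes 0%). Averaged over diets, 0 of 38 were called for ko (all genes 1.16%), and averaged over genotypes, 1 of 38 for HFD (all genes 1.04%). The difference of the ko effect between diets called 0 of 38 members and 0% of all genes.

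At an unadjusted p under 0.05 the share of members was below or close to that of all genes. Such members numbered 4 (10.5%) for ko on normal diet, against 15.1% of all genes, and 1 (2.63%) for ko on HFD, against 8.85%. The diet gave 4 (10.5%) in wt, against 17.0%, and 1 (2.63%) in ko, against 5.63%. For the difference between diets the figures were 2 (5.26%) and 5.02%, for ko averaged over diets 5 (13.2%) and 18.7%, and for HFD averaged over genotypes 7 (18.4%) and 17.6%. DESeq2 called 0 members for ko on HFD, HFD in ko and the difference, where it called 83, 34 and 20 genes in all. For ko on normal diet it called 2 (Nudt7 and Pdk4) among 491 genes in all. For ko averaged over diets it called 2 (Decr2 and Pdk4) among 787. For HFD in wt it called 2 (Nudt7 and Acot3) among 629. Averaged over genotypes it called 4 for HFD (Etfb, Nudt7, Acot3 and Cyp4a32) among 744.

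Ranges of the groups compared seldom separated. On normal diet, Ppara and Nudt7 were higher in every ko than in every wt library and Crat, Acot2 and Pdk4 lower, which is 13.2% of members against 22.8% of all genes. On HFD, Hadh and Decr2 lay above and Acads, Acaa2, Acot1 and Cyp4a32 below, or 15.8% against 13.6%. Between diets in wt, Acaa2, Ech1, Etfb, Nudt7 and Vnn1 lay above on HFD and Cpt1a, Crat and Acot3 below, or 21.1% against 21.9%. In ko, Cyp4a32 alone separated, below on HFD, or 2.63% against 11.4%.

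The median fitted log2 change over the 38 members was close to 0 in each comparison. It was -0.07 for ko on normal diet (all genes -0.02), -0.01 for ko on HFD (all genes -0.01), -0.18 for HFD in wt (all genes -0.03) and 0.09 for HFD in ko (all genes 0.00). Single libraries decided the sign of these medians. Without ko normal 1 the first became 0.10 and the last -0.14, and without wt normal 3 the third became 0.01. The second became 0.13 without ko HFD 1, 0.06 without wt HFD 1 and 0.03 without wt HFD 2. Fitted changes were under 1.5-fold in 78.9%, 89.5%, 78.9% and 86.8% of members in the same order, against 76.4%, 82.3%, 74.8% and 85.4% of all genes. For the difference of the ko effect between diets the median was 0.16 (all genes 0.01). There 63.2% of members were positive, against 50.7% of all genes, and the median ran from -0.07 to 0.32 when each library was left out. For ko averaged over diets the median was -0.07 (all genes -0.01).

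**Figure D1:**
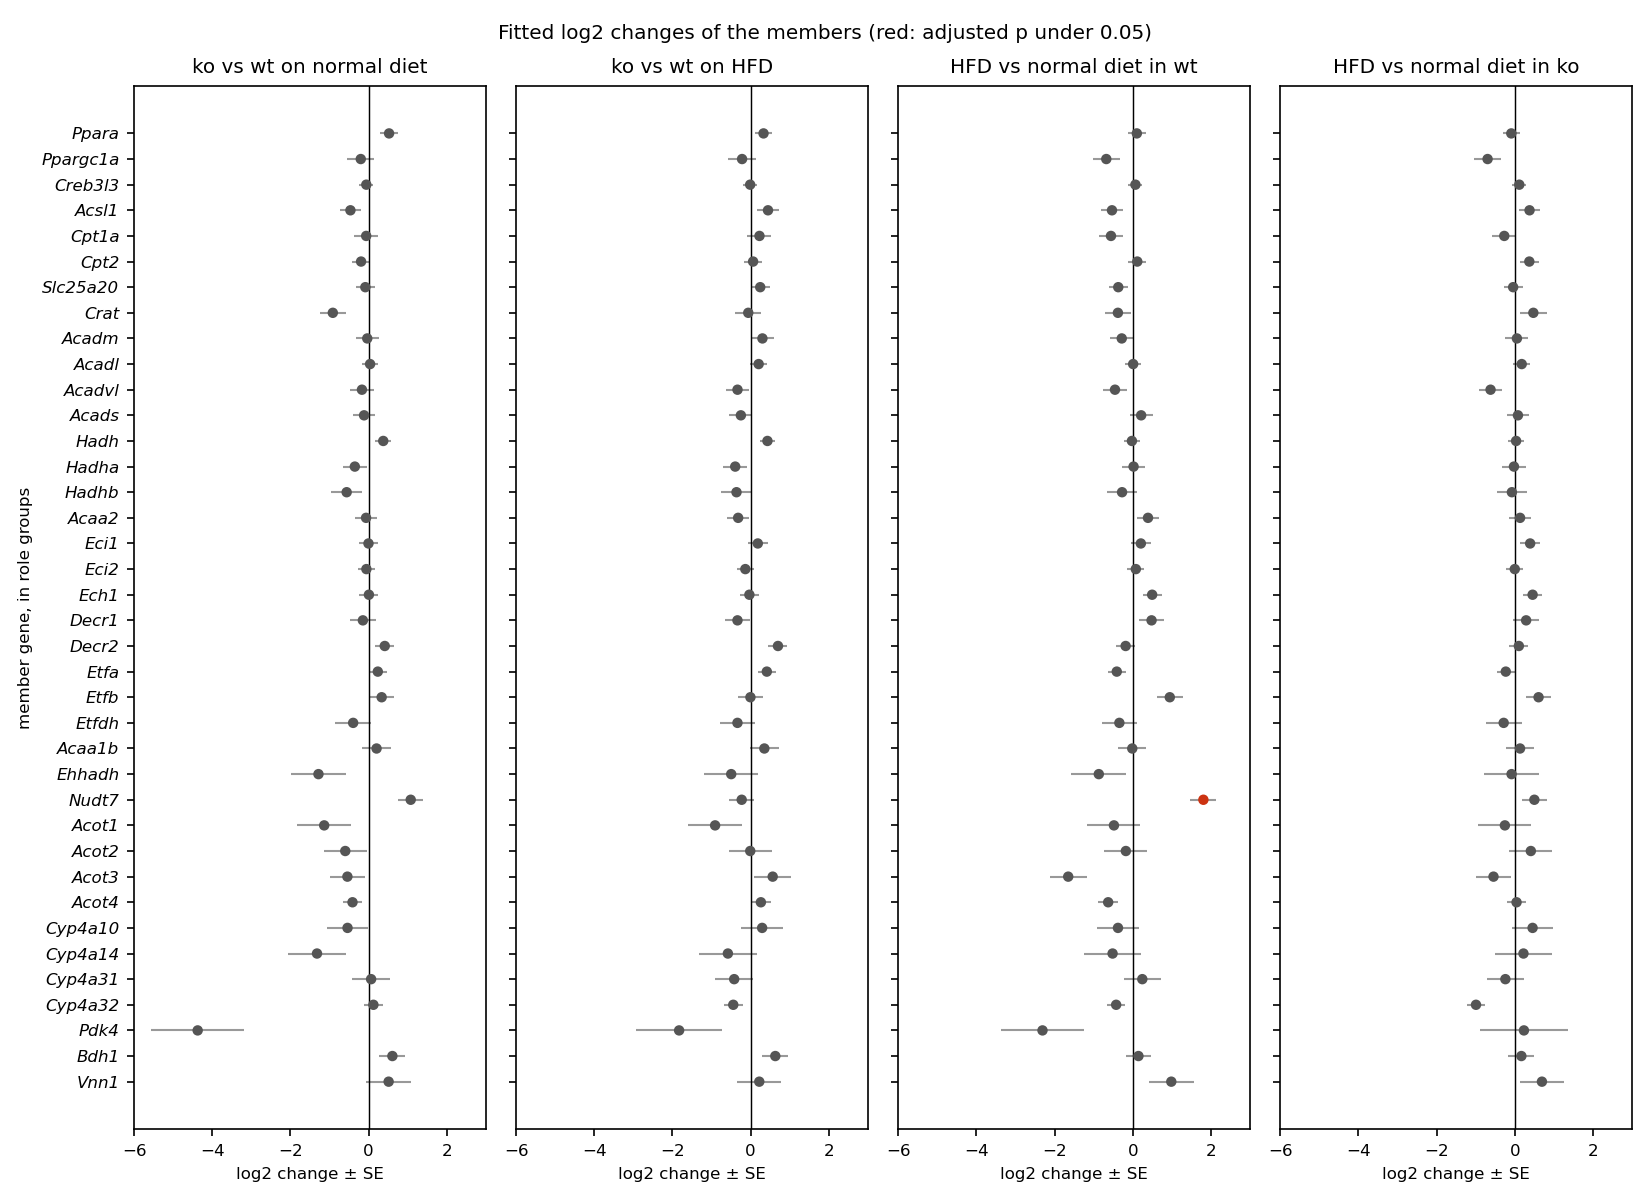
Fitted log2 change (points) with its standard error (lines) of each of the 38 members, in role groups, for the 4 comparisons between pairs of groups. Nudt7 in the panel for HFD in wt, at 1.81, is the one red point, and Pdk4 has the widest error.

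The 3 regulators were not called in any comparison. Ppara, the receptor itself, had 21.2, 14.2 and 21.9 CPM in wt normal, 26.8, 24.4 and 31.2 in ko normal, 20.3, 23.6 and 17.7 in wt HFD, and 18.2, 28.7 and 30.5 in ko HFD. All 3 ko normal libraries lay above all 3 wt normal libraries, whereas the HFD groups overlapped. Its log2 change for ko was 0.52 (SE 0.22, adjusted p = 0.299) on normal diet and 0.43 (SE 0.16, adjusted p = 0.175) averaged over diets. Ppargc1a encodes PGC-1α, a coactivator of PPARα. It was the scarcest member, with 3.94, 5.24 and 7.92 CPM in wt normal, 6.20, 3.05 and 5.67 in ko normal, 4.15, 4.19 and 2.38 in wt HFD, and 2.80, 3.63 and 2.76 in ko HFD. The groups overlapped in both genotypes, and the HFD change averaged over genotypes was -0.69 (SE 0.25, adjusted p = 0.182). Creb3l3 encodes CREBH, a liver transcription factor that acts with PPARα in fasting. Its values were 406, 332 and 408 CPM in wt normal, 294, 415 and 391 in ko normal, 367, 419 and 416 in wt HFD, and 344, 420 and 428 in ko HFD. It was the steadiest member, with 1.46-fold between its highest and lowest library.

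Activation and the carnitine shuttle hold 5 members, and 0 were called. Acsl1, the main long-chain acyl-CoA synthetase of liver, had 1287, 851 and 1361 CPM in wt normal, 755, 870 and 910 in ko normal, 748, 1063 and 612 in wt HFD, and 790, 1077 and 1428 in ko HFD. The groups overlapped in every pair, and its ko effect differed between diets by 0.91 (SE 0.38, adjusted p = 0.949). Crat, which moves acetyl groups between carnitine and coenzyme A, had 160, 171 and 168 CPM in wt normal, 45.5, 117 and 102 in ko normal, 137, 140 and 107 in wt HFD, and 69.3, 167 and 132 in ko HFD. Every ko normal library was below every wt normal library, with ko normal 1 the lowest. The change for ko on normal diet was -0.92 (SE 0.34, adjusted p = 0.224), and -0.60 without ko normal 1. Cpt1a, the gatekeeper of mitochondrial entry, ran from 148 to 381 CPM, Cpt2, its partner at the inner membrane, from 158 to 319 CPM, and the carrier Slc25a20 from 124 to 226 CPM. Fitted ko changes in this group ran from -0.92 for Crat to -0.06 for Cpt1a on normal diet and from -0.06 for Crat to 0.44 for Acsl1 on HFD.

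Among the 5 mitochondrial dehydrogenases, 0 were called. Hadh, the short-chain hydroxyacyl-CoA dehydrogenase, had 183, 157 and 194 CPM in wt normal, 170, 268 and 255 in ko normal, 187, 175 and 164 in wt HFD, and 199, 229 and 280 in ko HFD. The HFD groups separated and the normal-diet groups overlapped through ko normal 1. Its ko change was 0.43 (SE 0.20, adjusted p = 0.565) on HFD and 0.40 (SE 0.14, adjusted p = 0.154) averaged over diets. Acadvl, which opens the oxidation of very long chains, had 73.4, 77.6 and 86.7 CPM in wt normal, 47.8, 103 and 60.0 in ko normal, 43.2, 47.8 and 82.6 in wt HFD, and 46.0, 36.7 and 54.8 in ko HFD. The diet groups overlapped in both genotypes, and the HFD change averaged over genotypes was -0.54 (SE 0.21, adjusted p = 0.213). The medium-, long- and short-chain enzymes Acadm, Acadl and Acads ran from 194 to 461, from 163 to 291 and from 65.0 to 198 CPM.

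Hadha and Hadhb encode the subunits of the mitochondrial trifunctional protein, and Acaa2 the thiolase that ends the cycle. Their fitted ko changes ran from -0.56 for Hadhb to -0.07 for Acaa2 on normal diet and from -0.40 for Hadha to -0.32 for Acaa2 on HFD, and 0 of the 3 were called. Hadha ran from 124 CPM in ko normal 1 to 357 CPM in ko normal 2, within 1 group. The ratio of Hadha to Hadhb CPM lay between 1.49 and 2.68, with a median of 1.91, and was highest in ko normal 1. About 19.7% of the 50-base windows of Hadhb transcripts also occur in other annotated genes, so its level is less certain.

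The 5 isomerases and reductases, which prepare unsaturated chains for oxidation, had 0 members called. Decr2, the peroxisomal dienoyl-CoA reductase, had 220, 159 and 266 CPM in wt normal, 209, 313 and 336 in ko normal, 187, 223 and 159 in wt HFD, and 251, 319 and 353 in ko HFD. Each ko HFD library exceeded each wt HFD library. The ko change was 0.70 (SE 0.24, adjusted p = 0.455) on HFD and 0.56 (SE 0.17, adjusted p = 0.121) averaged over diets, and DESeq2 called the average (adjusted p = 0.0357). Ech1, a dienoyl-CoA isomerase, had 550, 471 and 556 CPM in wt normal, 319, 652 and 615 in ko normal, 741, 829 and 657 in wt HFD, and 632, 818 and 727 in ko HFD. In wt every HFD library was above every normal-diet library, and the change averaged over genotypes was 0.48 (SE 0.17, adjusted p = 0.182). Eci1, Eci2 and Decr1 ran from 135 to 334, from 168 to 298 and from 82.6 to 348 CPM.

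Etfa and Etfb form the flavoprotein that takes electrons from the acyl-CoA dehydrogenases, and Etfdh passes them to ubiquinone. None of the 3 was called by edgeR. Etfb had 151, 111 and 127 CPM in wt normal, 216, 110 and 164 in ko normal, 307, 285 and 159 in wt HFD, and 237, 353 and 158 in ko HFD. The wt groups separated, with wt HFD 3 just above wt normal 1, and the ko groups overlapped. The change on HFD was 0.95 (SE 0.33, adjusted p = 0.181) in wt and 0.78 (SE 0.23, adjusted p = 0.118) averaged over genotypes, and DESeq2 called the average (adjusted p = 0.0239). Its partner Etfa had negative fitted HFD changes of -0.41 in wt and -0.23 in ko. Of the windows of Etfb transcripts 44.8% also occur in other annotated genes, mainly Gm45233, which was at 0 in all 12 libraries, so the level of Etfb is uncertain.

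Among the 3 peroxisomal members, Nudt7 was called and Ehhadh and Acaa1b were not. Nudt7 (ENSMUSG00000031767, GRCm38 chr8:114133557-114154739) encodes a peroxisomal diphosphatase that degrades coenzyme A. It had 168, 74.7 and 84.9 CPM in wt normal, 191, 288 and 212 in ko normal, 300, 424 and 422 in wt HFD, and 267, 256 and 456 in ko HFD. All 3 wt normal libraries were below the other 9 libraries. In wt it rose 3.5-fold on HFD (log2 change 1.81, SE 0.33, adjusted p = 0.0322), with every HFD library above every normal-diet library. Averaged over genotypes it rose by 1.16 on the log2 scale (SE 0.23, adjusted p = 0.0385), although the ko groups overlapped and changed by 0.50 (SE 0.32, adjusted p = 0.886). The ko change on normal diet was 1.08 (SE 0.33, adjusted p = 0.148), with separate groups, and on HFD it was -0.23. The diet effect was not shown to differ between genotypes, since the difference of -1.31 (SE 0.46) had an edgeR adjusted p of 0.913.

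Both Nudt7 calls depended on single libraries and settings, while the direction held in each one run. The wt call ended without wt normal 2 (log2 change 1.62, adjusted p = 0.115), wt normal 3 (1.66, 0.108), ko normal 3 (1.82, 0.0570), wt HFD 1 (1.96, 0.0627), wt HFD 2 (1.76, 0.0775) or wt HFD 3 (1.73, 0.0535). The averaged call ended without wt normal 2 (1.06, 0.0818) or 3 (1.08, 0.101), ko normal 1 (1.10, 0.0863), 2 (1.26, 0.0573) or 3 (1.13, 0.109), wt HFD 1 (1.23, 0.0510) or 2 (1.13, 0.0743), or ko HFD 1 (1.23, 0.0677) or 3 (1.01, 0.0521). These values are log2 changes and edgeR adjusted p-values in that order. The wt call also ended when only the groups compared were fitted (1.82, adjusted p = 0.0833).

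Ehhadh, the peroxisomal bifunctional enzyme and a classical PPARα target, had 659, 318 and 1066 CPM in wt normal, 46.7, 482 and 311 in ko normal, 249, 504 and 367 in wt HFD, and 91.6, 399 and 302 in ko HFD. Its lowest libraries were ko normal 1 and ko HFD 1, and the groups overlapped. The ko change on normal diet was -1.28 (SE 0.71, adjusted p = 0.415), and -0.78 without ko normal 1. On HFD it was -0.50 (SE 0.70, adjusted p = 0.865), and -0.09 without ko HFD 1. Acaa1b, a peroxisomal thiolase, ran from 749 to 2193 CPM, and 30.5% of its transcript windows also occur in Acaa1a.

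**Figure D2:**
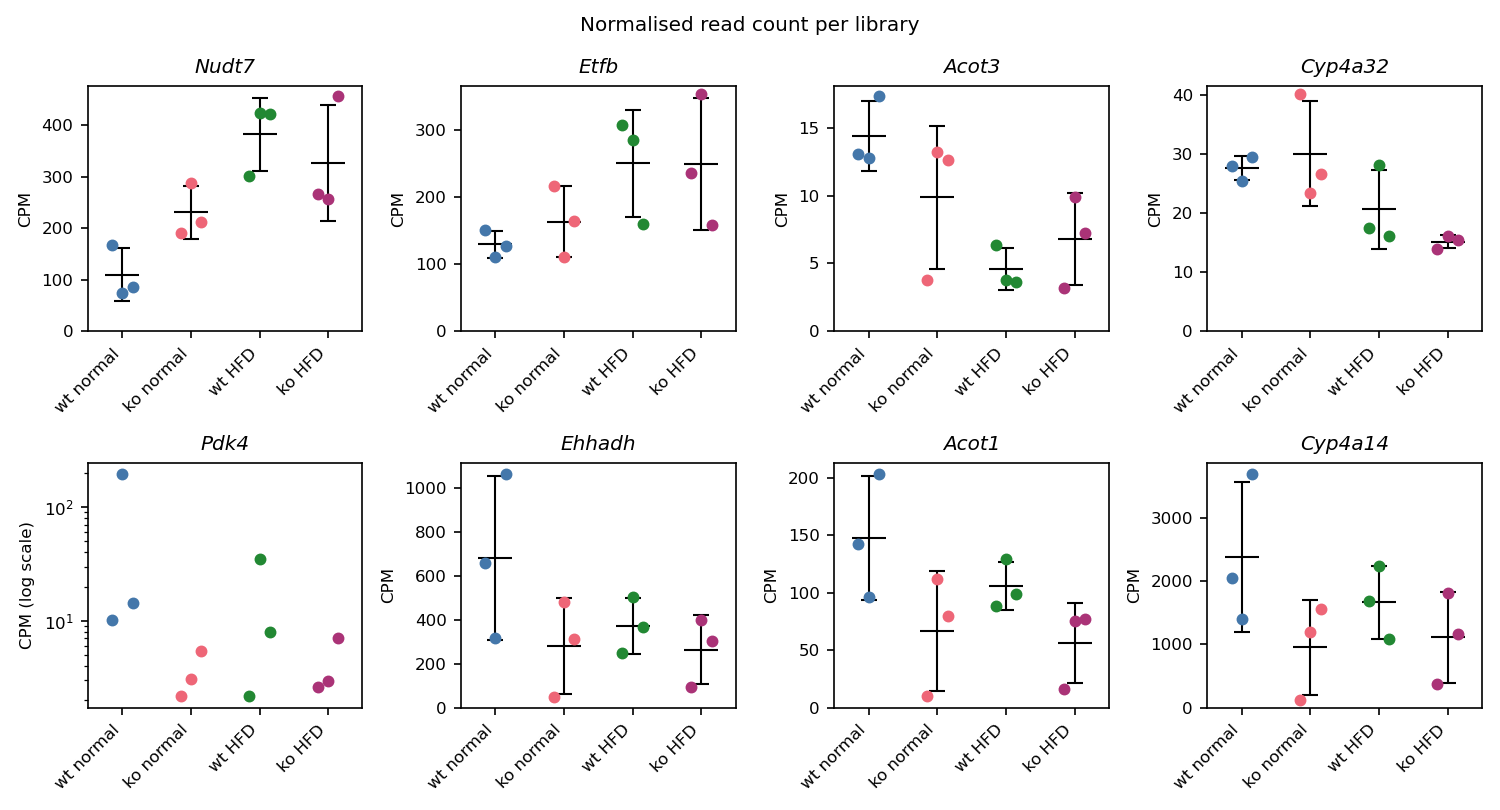
CPM of 8 members in each library (points) with the group mean and SD (n = 3 libraries), on a log axis without mean for Pdk4. All 3 wt normal libraries of Nudt7 are below the other 9, and Ehhadh, Acot1 and Cyp4a14 each have 1 very low library in both ko groups.

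The 4 acyl-CoA thioesterases, which release free fatty acids from coenzyme A, lie close together on chromosome 12, and 0 were called by edgeR. Acot1, the cytosolic enzyme, had 143, 95.7 and 203 CPM in wt normal, 9.62, 112 and 79.5 in ko normal, 88.5, 129 and 99.0 in wt HFD, and 16.3, 75.3 and 77.0 in ko HFD. On HFD every ko library was below every wt library, and on normal diet ko normal 2 overlapped the wt range. Its ko change was -1.14 (SE 0.69, adjusted p = 0.461) on normal diet and -0.62 without ko normal 1, and -0.91 (SE 0.68, adjusted p = 0.737) on HFD and -0.47 without ko HFD 1. Acot2, the mitochondrial enzyme, had 11.4, 12.3 and 14.1 CPM in wt normal, 4.06, 10.7 and 10.1 in ko normal, 15.9, 8.52 and 9.07 in wt HFD, and 2.16, 15.7 and 15.4 in ko HFD. The normal-diet groups separated narrowly, and the change there was -0.60 (SE 0.55, adjusted p = 0.651).

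Acot3, a peroxisomal thioesterase, had 13, 12.8 and 17.4 CPM in wt normal, 3.77, 13.2 and 12.6 in ko normal, 6.37, 3.74 and 3.63 in wt HFD, and 3.15, 9.90 and 7.27 in ko HFD. In wt all HFD libraries were below all normal-diet libraries, and in ko the groups overlapped. The HFD change was -1.65 (SE 0.47, adjusted p = 0.116) in wt and -1.10 (SE 0.33, adjusted p = 0.117) averaged over genotypes, and DESeq2 called both (adjusted p = 0.0171 and 0.0267). Acot4, another peroxisomal thioesterase, had 59.9, 48.5 and 68.1 CPM in wt normal, 32.7, 48.8 and 51.2 in ko normal, 51.6, 35.3 and 27.4 in wt HFD, and 36.8, 51.1 and 49.0 in ko HFD. The wt groups overlapped through wt HFD 1, and the HFD change in wt was -0.63 (SE 0.25, adjusted p = 0.228). These genes resemble each other: 27.7% of the transcript windows of Acot2, 19.2% of Acot1, 19.1% of Acot3 and 4.53% of Acot4 occur in other genes, so reads may have been split between them.

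The 4 ω-hydroxylases lie together on chromosome 4, and 0 were called by edgeR. Cyp4a10 had 1179, 697 and 1919 CPM in wt normal, 370, 907 and 1335 in ko normal, 1124, 1036 and 762 in wt HFD, and 412, 1823 and 1347 in ko HFD. Cyp4a14 had 2050, 1404 and 3698 CPM in wt normal, 112, 1194 and 1558 in ko normal, 1692, 2235 and 1078 in wt HFD, and 376, 1809 and 1156 in ko HFD. Both had their lowest libraries in ko normal 1 and ko HFD 1, and their groups overlapped in every pair. For Cyp4a14 the ko change on normal diet was -1.32 (SE 0.75, adjusted p = 0.425) and -0.79 without ko normal 1, and on HFD it was -0.58 (SE 0.74, adjusted p = 0.852) and -0.17 without ko HFD 1. For Cyp4a10 it was -0.54 (SE 0.53) on normal diet and 0.29 (SE 0.53) on HFD, or -0.15 without ko HFD 2.

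Cyp4a31 had 25.9, 14.8 and 41.8 CPM in wt normal, 10.8, 24.0 and 51.5 in ko normal, 36.7, 40.6 and 20.6 in wt HFD, and 24.9, 27.1 and 21.1 in ko HFD. Cyp4a32 had 28.0, 25.5 and 29.5 CPM in wt normal, 40.3, 23.4 and 26.7 in ko normal, 17.5, 28.3 and 16.2 in wt HFD, and 13.9, 16.1 and 15.5 in ko HFD. The 3 ko HFD libraries of Cyp4a32 were its 3 lowest, whereas the groups of Cyp4a31 overlapped. The HFD change of Cyp4a32 was -0.99 (SE 0.24, adjusted p = 0.521) in ko and -0.71 (SE 0.17, adjusted p = 0.0656) averaged over genotypes. That average was called without wt HFD 2 (-0.84, adjusted p = 0.0376) and by DESeq2 (-0.70, adjusted p = 0.0105). Of their transcript windows, 43.8% for Cyp4a32, 29.8% for Cyp4a10 and 20.6% for Cyp4a31 occur in related genes, so the small values of Cyp4a31 and Cyp4a32 are uncertain.

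The last 3 members are Pdk4, which turns off pyruvate dehydrogenase when fat is burnt, Bdh1, which interconverts the ketone bodies, and Vnn1, a pantetheinase. Pdk4 had 10.2, 197 and 14.3 CPM in wt normal, 2.20, 3.10 and 5.4 in ko normal, 2.16, 34.8 and 8.05 in wt HFD, and 2.63, 2.94 and 7.08 in ko HFD. Every ko normal library was below every wt normal library, and wt normal 2, the library with 12123 CPM of muscle markers, stood far above all others. The ko change on normal diet was -4.37 (SE 1.19, adjusted p = 0.122) and -1.76 (adjusted p = 0.554) without wt normal 2. Averaged over diets it was -3.10 (SE 0.80, adjusted p = 0.0806) and -1.80 (adjusted p = 0.179) without that library. Bdh1 had 199, 109 and 132 CPM in wt normal, 126, 296 and 250 in ko normal, 160, 166 and 162 in wt HFD, and 154, 306 and 295 in ko HFD. The first library of each ko group lay within or below the wt range and the other ko libraries above it, and the ko change was 0.62 (SE 0.23, adjusted p = 0.179) averaged over diets. Vnn1 ran from 16.6 CPM in ko normal 1 to 195 CPM in ko HFD 3, and its wt groups separated, with 27.9 to 76.9 CPM on normal diet and 95.4 to 130 CPM on HFD.

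Single libraries stood apart from their own groups in many of these genes. Library ko normal 1 was the lowest of all 12 in 20 of 38 members, and ko HFD 1 in 5. Together they were the lowest pair in 12 members: Slc25a20, Crat, Acadm, Acadl, Hadha, Hadhb, Etfdh, Ehhadh, Acot1, Acot2, Cyp4a10 and Cyp4a14. The median member stood in ko normal 1 at 0.558 times, in ko HFD 1 at 0.643 times and in wt normal 2 at 0.800 times the mean of the other libraries of its group. Members were below that mean in 35, 35 and 34 of 38 cases. The same counts were not taken over all genes, so they do not show a trait particular to the members. The high mitochondrially encoded share of ko normal 1 (14.6%) had no counterpart in ko HFD 1 (4.18%, the lowest of the 12), and the part of that share in the low values was not tested. The acute-phase gene Saa1, named only once its values were known, had 15302 CPM in ko HFD 1 against 169 and 271 CPM in its group, but 55.2 CPM in ko normal 1 against 2524 and 963 CPM.

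**Figure D3:**
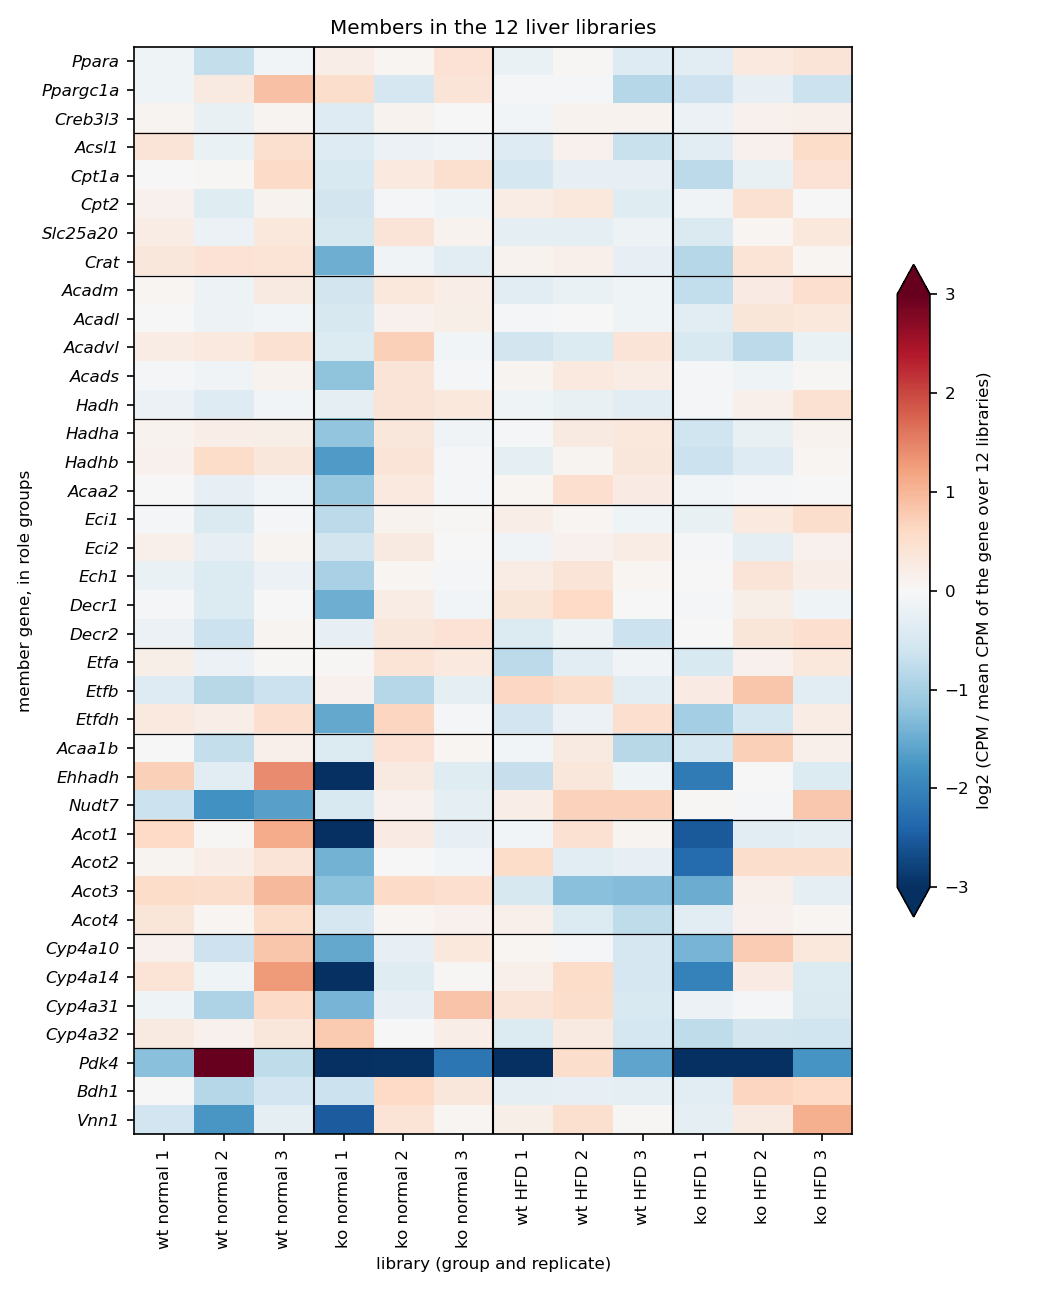
Each of the 38 members (rows) in each of the 12 libraries (columns), as log2 of its CPM over its mean CPM, with colours saturating at -3 and 3. The columns ko normal 1 and ko HFD 1 are blue for most genes, and wt normal 2 is dark red for Pdk4.

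The spread over libraries differed widely between members. The highest library exceeded the lowest by 91.2-fold for Pdk4, 33.1-fold for Cyp4a14, 22.8-fold for Ehhadh, 21.1-fold for Acot1 and 11.8-fold for Vnn1. By contrast Creb3l3, Slc25a20, Acadl, Hadh and Eci2 stayed within 2-fold. The group with the highest mean was wt normal for 16 members, wt HFD for 10, ko HFD for 9 and ko normal for 3. The lowest mean was in ko normal for 12 members, wt HFD for 10, ko HFD for 9 and wt normal for 7. These counts were not taken over all genes, and library ko normal 1 alone was the lowest of all 12 in 20 members.

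Levels between genes were compared per kilobase of annotated exon. The length was the union of all annotated exons, from 1164 bases for Etfb to 10483 for Acsl1. This union can exceed the transcript present in liver, so genes with long unions may rank too low. The most abundant were Acaa1b at 682, Acaa2 at 648, Cyp4a14 at 588 and Cyp4a10 at 510 CPM per kilobase, followed by Ech1 at 276. At the other end stood Acot2 at 4.91, Acot3 at 2.59 and Ppargc1a at 0.66 CPM per kilobase. The order of the first 4 was within the spread over libraries, since Acaa1b alone varied 2.93-fold and Cyp4a14 33.1-fold.

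**Figure D4:**
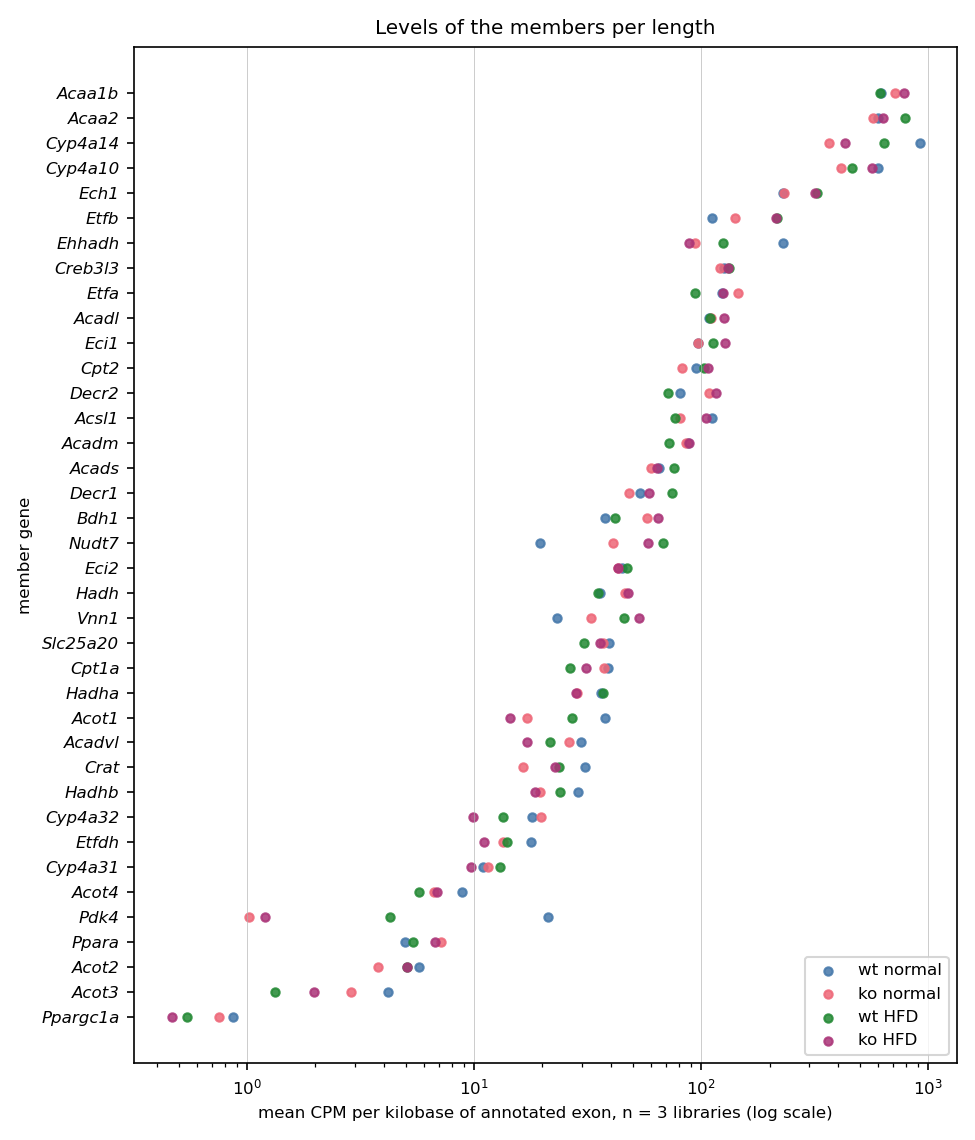
Mean CPM per kilobase of annotated exon on a log axis for each member, ordered by its mean over all libraries, with 1 point for each group (n = 3 libraries). Peroxisomal and mitochondrial thiolases and the main Cyp4a genes lead, and Ppargc1a is last.

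Few other genes of lipid oxidation and its control were called. In a list of 74 related genes, 66 were tested, and 1 was called in 1 of 7 comparisons, ko averaged over diets, where 1.16% of all genes were called. That gene was Acsl4, a synthetase that favours arachidonic acid, with 19.2, 21.2 and 24.8 CPM in wt normal, 14.1, 14.9 and 12.0 in ko normal, 35.4, 26.9 and 28.3 in wt HFD, and 21.1, 18.2 and 22 in ko HFD. Ko libraries were below wt libraries on each diet, and averaged over diets it fell by 0.62 on the log2 scale (SE 0.12, adjusted p = 0.0338). The call ended on leaving out any 1 library other than wt normal 1, ko normal 2, wt HFD 1 or wt HFD 2, with edgeR adjusted p-values up to 0.0941. Of 24 regulators and cofactors, all tested, 2 were called for ko averaged over diets (all genes 1.16%) and 1 for HFD averaged over genotypes (all genes 1.04%).

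The 2 called for ko are PAR bZIP transcription factors, of which Dbp is a clock output gene and also stands in the clock list. Dbp had 2.15, 13.5 and 2.04 CPM in wt normal, 191, 97.3 and 107 in ko normal, 83.6, 59.1 and 6.52 in wt HFD, and 74.6, 125 and 112 in ko HFD. Its normal-diet groups separated and its HFD groups overlapped, and it rose by 2.76 on the log2 scale averaged over diets (SE 0.58, adjusted p = 0.0419). Hlf rose by 0.75 (SE 0.16, adjusted p = 0.0478). The Dbp call ended on leaving out any library other than wt normal 2, wt HFD 1 or wt HFD 3 (adjusted p up to 0.0926), and the Hlf call without any but wt HFD 1 (up to 0.117). Both calls also ended when genes were required to have a mean CPM of at least 1 (adjusted p = 0.0535 for Dbp and 0.0540 for Hlf). Clock sums were 246 to 378 CPM in wt normal, 537 to 1006 in ko normal, 344 to 567 in wt HFD and 585 to 642 in ko HFD, and their part in these or in the members' values was not tested. Foxo1, a fasting-activated transcription factor, had 20.9, 27.7 and 29.4 CPM in wt normal, 28.6, 23.3 and 27.3 in ko normal, 42.1, 40.8 and 36.3 in wt HFD, and 41.0, 38.5 and 35.7 in ko HFD. All 6 HFD libraries were above all 6 normal-diet libraries, and Foxo1 rose by 0.58 on the log2 scale (SE 0.11, adjusted p = 0.0344). That call ended on leaving out any library other than wt HFD 3 or ko HFD 3 (adjusted p up to 0.0889). Fgf21, a hormone induced by PPARα, had 338, 11 and 66.5 CPM in wt HFD against 10.2, 2.38 and 13.1 in wt normal, groups that overlap, and its change was 4.02 (SE 1.08, adjusted p = 0.105). DESeq2 called it (4.03, adjusted p = 0.0139), as did edgeR without a filter on low counts (adjusted p = 0.00192).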

How the data were processed

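The authors deposited 1 table of raw counts per gene for each of 12 libraries. Per the submitters' processing notes, CASAVA 1.8 and Bowtie 0.12.2 were used, and mm8 and mm9 are named without a role. No counting tool, annotation or strand setting is given in the sources used here, and overlapping and similar genes may share reads. Gene symbols, positions and exon lengths came from GENCODE M21 (GRCm38).

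Counts were filtered with filterByExpr and scaled by TMM. The quasi-likelihood test of edgeR 4.0.16 (R 4.3.3, limma 3.58.1) was fitted to 4 group means over all 12 libraries, with Benjamini-Hochberg adjustment over 14433 genes and a threshold of 0.05. Fold changes come from this fit, and the method was tested on simulated data. Alternatives were DESeq2 1.42.0, its size factors, other filters, library sizes without mitochondrially encoded genes, only the groups compared, a replicate block and leaving out each library. One more, leaving out wt normal 2 and ko normal 1, was chosen after seeing the data. Members described by library are those called, the 4 with the smallest p in each comparison, and all regulators, Cyp4a and Acot genes. Ehhadh was added after its values were seen. Members and gene lists were chosen with earlier results of these data known. The precision rests on library totals of 15465187 to 20492567 counts and 3 libraries per group.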

Additional observations from a re-analysis of the deposited data

How the results depend on the processing

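Of 53 named changes, 52 kept their sign under each alternative run. That of Cyp4a10 for ko on HFD (-0.15 to 0.70 when each library was left out) turned without ko HFD 2. When each library was left out, medians over the members ran from -0.26 for ko on normal diet to 0.34 for HFD in ko. The spread of the median between replicates, the same value for each comparison, was 0.33. Counts of members called also moved. For ko against wt on normal diet, 0 members became 2 with DESeq2 and 2 without a filter on low counts (Nudt7 and Pdk4). For HFD in wt, 1 became 2 with DESeq2 and 2 without a filter (Nudt7 and Acot3), 0 when only the groups compared were fitted, and 0 to 1 when each library was left out. For ko averaged over diets, 0 became 2 with DESeq2 and 1 without a filter. For HFD averaged over genotypes, 1 became 4 with DESeq2 and 4 without a filter (Etfb, Nudt7, Acot3 and Cyp4a32), and 0 to 1 when each library was left out. Without both wt normal 2 and ko normal 1, an alternative chosen after seeing the data, 0 were called for HFD in wt and 0 averaged over genotypes. The causes were not tested. Over all genes these settings also called more: 491 and 648 against 30 for ko on normal diet, 629 and 696 against 100 for HFD in wt, 787 and 644 against 168 for ko averaged over diets, and 744 and 489 against 150 for HFD averaged over genotypes, with DESeq2 and without a filter.

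Replicate numbers were not shown to pair the samples. Deviations of libraries with the same number correlated at -0.21 to 0.33 (median 0.02), and with different numbers at -0.25 to 0.24 (median -0.01). Still, 7 of 12 libraries correlated best with a library of their own number, so pairing is not excluded. With the replicate block, 0 members were called for HFD in wt and 0 for HFD averaged over genotypes, where Nudt7 had log2 changes of 1.81 (adjusted p = 0.0552) and 1.14 (adjusted p = 0.0616). Fitting only the groups compared was not run for contrasts that use all 4 groups. With 3 libraries per group, fitted standard errors ran from 0.18 to 1.19 on the log2 scale for ko on normal diet. A standard error is not a limit of detection, and changes larger than it also went uncalled. In that comparison Pdk4 at -4.37 and Nudt7 at 1.08 had edgeR adjusted p-values of 0.122 and 0.148. Members that were not called may therefore still differ. With the block, the calls of Hlf (adjusted p = 0.0619) and Foxo1 (0.0596) also ended.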
